A study of Mus musculus with 6 samples.

Results

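Secretory lineage transcription factors of the mouse colonic crypt were followed across untreated crypts, crypts in early colitis and adenoma crypts. The 8 genes were Atoh1, Spdef, Foxa3, Creb3l1 and Creb3l4, which act in goblet cells and their progenitors, and Neurod1, Pax6 and Isl1, which act in enteroendocrine cells. They were taken by symbol: 14 probe sets, each annotated to 1 of these symbols alone, were found among the 22690 of the array, and the whole array covers 12393 genes with a probe set of their own. Of the 8 genes 7 passed the filter on low values and were tested, and Pax6 did not pass. In adenoma crypts Atoh1 and Neurod1 fell and Isl1 rose, while the tumor arrays of Foxa3 overlapped with control, and no factor passed the test on day 2 of dextran sulfate sodium (DSS).

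The crypts, epithelial glands of the colon, came from male Lgr5-lacZ het mice, which carry 1 copy of a lacZ reporter at the stem cell receptor gene Lgr5. This allele was shared by all groups, controls included. Each of the 3 groups had 2 arrays, called biological replicates in the labels, and the arrays' number limits the precision. Control arrays carried crypts pooled from the distal colons of 2 mice on drinking water, and DSS arrays crypts pooled from 2 mice on day 2 of 1% DSS, which injures the colonic epithelium. Tumor arrays carried crypts of 12 pooled adenomas, from 2 mice per the study's design text, given azoxymethane, a colon carcinogen, at 12.5 mg per kg. Those mice then had 3 DSS cycles of 2, 1.5 and 1.0% and were sampled 90 days after azoxymethane. Control and DSS mice were 6 to 8 weeks old and tumor mice received azoxymethane at that age. Age, azoxymethane and the repeated DSS cycles therefore cannot be told apart from tumor state. In such bulk samples fewer cells of a type and less RNA per cell cannot be told apart either.

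Absorptive and secretory fates part early in the crypt. Cells with active Notch signalling express Hes1, a repressor of Atoh1, and become absorptive colonocytes, whereas cells that escape Notch express Atoh1 and enter the secretory lineage. Below Atoh1, Spdef drives goblet cell maturation, and factors such as Neurod1, Pax6 and Isl1 act in the enteroendocrine branch, whose cells release gut hormones. Atoh1 and Neurod1 are basic helix-loop-helix proteins that bind E-boxes.

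The promoter windows of the 3 factors that passed the test in tumor crypts are shown because their levels moved in opposite directions. They are RefSeq sequences of GRCm38.p6, each 300 bases on the gene's own strand, with 250 bases before the annotated start and 50 after it. Capitals mark E-boxes (CANNTG) and the binding word of TCF factors, the nuclear partners of Wnt signalling (CTTTGAT).
Atoh1, chr6:64728875-64729174, plus strand: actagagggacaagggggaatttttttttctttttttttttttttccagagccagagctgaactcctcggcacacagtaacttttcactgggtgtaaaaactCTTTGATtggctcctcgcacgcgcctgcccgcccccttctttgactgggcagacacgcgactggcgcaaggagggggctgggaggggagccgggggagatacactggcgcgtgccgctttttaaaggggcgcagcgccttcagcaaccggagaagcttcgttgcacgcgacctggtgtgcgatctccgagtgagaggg
Neurod1, chr2:79456587-79456886, minus strand: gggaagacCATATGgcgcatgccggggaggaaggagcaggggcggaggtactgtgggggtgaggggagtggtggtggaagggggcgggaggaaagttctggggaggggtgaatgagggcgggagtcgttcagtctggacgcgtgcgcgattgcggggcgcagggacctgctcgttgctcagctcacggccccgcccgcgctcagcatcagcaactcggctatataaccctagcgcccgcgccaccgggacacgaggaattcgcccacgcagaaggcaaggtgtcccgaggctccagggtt
Isl1, chr13:116309639-116309938, minus strand: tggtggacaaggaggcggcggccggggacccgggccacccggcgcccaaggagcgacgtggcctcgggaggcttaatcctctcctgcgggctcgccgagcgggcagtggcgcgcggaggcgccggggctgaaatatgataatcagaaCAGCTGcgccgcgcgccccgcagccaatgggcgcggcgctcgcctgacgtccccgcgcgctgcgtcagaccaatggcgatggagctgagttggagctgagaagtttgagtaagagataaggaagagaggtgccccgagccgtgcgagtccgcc
The Atoh1 window held 1 TCF word, starting 148 bases before the annotated start, a word that 3.73% of the 32851 promoter windows hold. The Neurod1 window held 1 E-box, 242 bases before the start. The Isl1 window held 1, the form CAGCTG, 103 bases before the start, and 16.3% of all windows hold that form. An E-box of any kind was in 5 of the 10 windows found for 7 of the factors and in 72.3% of all windows. Both strands were searched, also for CAGATG, the RBPJ core TGGGAA, the forkhead word TGTTTAC and TATAAA, and CAGCTG and CAGATG count as E-boxes too. The RBPJ core was in the Spdef window alone among the 10, against 25.6% of all windows. These are matches of letters and not binding sites.

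Atoh1, the factor that commits crypt cells to the secretory lineage, was lower in tumor crypts than in any other array. Its intensity was 986 and 1076 in control replicates 1 and 2, 923 and 1156 in the DSS replicates, and 379 and 254 in the tumor replicates. Control and DSS arrays overlapped, and both tumor arrays lay below all others. The means were 1031 ± 63.0 in control, 1039 ± 165 in DSS and 316 ± 88.3 in tumor crypts (SD, n = 2 each). In limma's fit of all 6 arrays Atoh1 fell by 1.67 ± 0.22 (SE) from control to tumor crypts, on the scale of log2 of intensity plus 17.7, with an adjusted p of 0.00163. Against DSS crypts it fell by 1.68 ± 0.22, with an adjusted p of 0.00144. Both calls held in all 18 alternatives, with changes from control of -1.95 to -1.40 on the log2 scale.

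**Figure D1:**
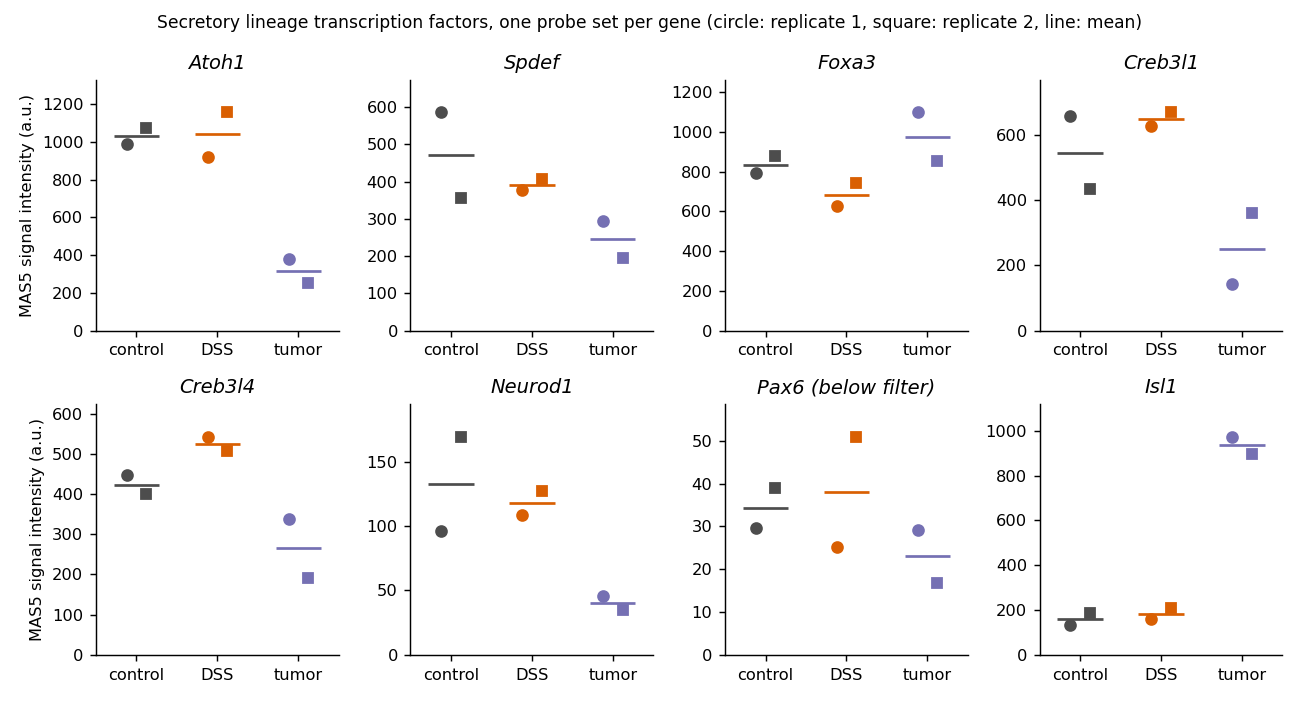
MAS5 signal intensity (linear, arbitrary units) of 1 probe set per factor in control, DSS and tumor crypts; circles and squares are replicates 1 and 2 and lines are means of 2 arrays. Both tumor arrays lie lowest for Atoh1, Spdef, Creb3l1, Creb3l4 and Neurod1 and highest for Isl1 (974 and 896), whereas Foxa3 overlaps with control; Pax6, at 16.8 to 50.9, did not pass the filter.

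Across the 7 factors tested, the comparison of tumor with control crypts called 3 by limma at an adjusted p under 0.05, against 22.5% of all 7456 genes tested. Lower were 2, Atoh1 and Neurod1, against 9.74% of all genes, and higher was 1, Isl1, against 12.8%. The median log2 change of the 7 was -0.88, beside 0.05 over all genes. Groups did not overlap in 6 of the 7, against 61.5% of all genes. In 5 of them both tumor arrays lay below both control arrays, against 27.7% of all genes, and in Isl1 above, against 33.8%. With each array centred on its median, which shifts all genes by -0.25 in this comparison, 6 of the 7 were called, 5 of them lower. That centring moves the share of higher genes among all calls from 56.8% to 34.6%.

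None of the other goblet factors passed against control crypts, and Creb3l1 and Creb3l4 passed against DSS crypts. Spdef, an Ets family factor of goblet cell maturation, read 586 and 355 on control replicates 1 and 2, 377 and 406 on DSS arrays and 295 and 196 on tumor arrays. Both tumor arrays were lowest, and control replicate 1 stood apart as the highest. Its log2 change in tumor crypts was -0.88 ± 0.28 from control (adjusted p = 0.0546 by limma, 95% interval -1.51 to -0.24) and -0.66 ± 0.28 from DSS crypts (adjusted p = 0.116). Spdef passed against control under quantile normalization (-1.05), median centring (-1.12) and in both fits blocked on replicate number (-0.88). It also passed without control replicate 2 (-1.22) and without tumor replicate 1 (-1.15). Against DSS crypts it passed with median centring (-0.90) and with the block in a fit of only 2 groups (-0.66).

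Creb3l1 is a basic leucine zipper factor held in the endoplasmic reticulum membrane until proteases release it, and it acts in goblet cell maturation. It measured 657 and 434 in control, 625 and 668 in DSS, and 141 and 360 in tumor replicates 1 and 2. Tumor arrays again lay below the rest, but here replicate 1 was the lower one, the reverse of Atoh1, Spdef, Foxa3, Creb3l4 and Neurod1, where replicate 2 was lower. Its log2 change was -1.17 ± 0.38 from control (adjusted p = 0.0592 by limma), and between arrays of the same number it was -2.08 for replicates 1 and -0.26 for replicates 2. Creb3l1 also passed against control with quantile normalization (-1.31), median centring (-1.42), the 75th percentile filter (-1.17) and the 2-group block (-1.17). Without tumor replicate 2 the change passed at -1.79, and without tumor replicate 1 it was -0.55. Against DSS crypts Creb3l1 fell by 1.44 ± 0.38 (adjusted p = 0.0262). That call ended without DSS replicate 1 (-1.48), without DSS replicate 2 (-1.39), without tumor replicate 1 (-0.81) and with no filter on low values (adjusted p = 0.0558).

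Creb3l4, a related membrane-bound factor, measured 447 and 399 in control, 542 and 508 in DSS, and 339 and 192 in tumor crypts. The 3 groups did not overlap: DSS was highest and tumor lowest. Against DSS crypts it fell by 0.99 ± 0.25 (adjusted p = 0.024 by limma). The call ended without DSS replicate 1 (-0.94), DSS replicate 2 (-1.03) or tumor replicate 2 (-0.61). From control to tumor crypts its log2 change was -0.69 ± 0.25 (adjusted p = 0.0893). It passed with median centring (-0.94) and without tumor replicate 1 (-1.07).

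Foxa3, a forkhead factor of gut endoderm and goblet cells, was not lower in tumor crypts. It measured 795 and 878 in control, 627 and 742 in DSS, and 1099 and 855 in tumor crypts. Tumor arrays overlapped with control and lay above DSS. Its log2 change from control to tumor crypts was 0.21 ± 0.19 (adjusted p = 0.463 by limma, 95% interval -0.23 to 0.65), and -0.04 with median centring. From DSS to tumor crypts it was 0.50 ± 0.19 (adjusted p = 0.091). The interval against control does not reach the change of Atoh1, whose interval was -2.19 to -1.16, and no test of one gene against the other was made.

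**Figure D2:**
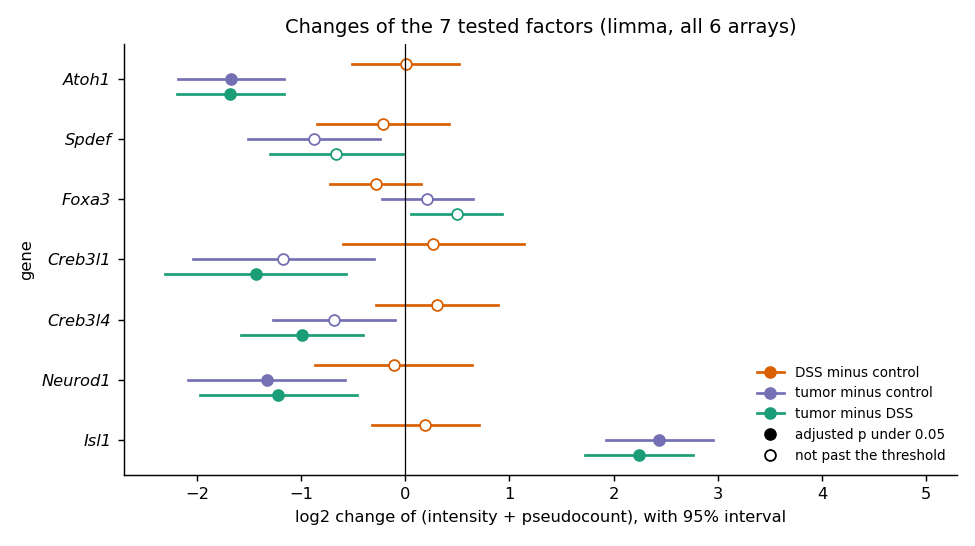
Log2 change of intensity plus 17.7 with 95% intervals from limma for the 7 tested factors in each of the 3 comparisons; filled points have an adjusted p under 0.05. Intervals of DSS minus control all include 0. In both tumor comparisons those of Atoh1, Spdef, Creb3l1, Creb3l4 and Neurod1 lie left of 0. Those of Isl1 lie right of 0, around 2.44 and 2.24. The interval of Foxa3 includes 0 against control and lies right of 0 against DSS crypts. Intervals are not adjusted for the number of genes, unlike the filling of points.

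Among the enteroendocrine factors, Isl1 and Neurod1 went opposite ways in tumor crypts. Neurod1, a basic helix-loop-helix factor of endocrine differentiation, measured 96.1 and 169 in control, 109 and 127 in DSS, and 46.0 and 35.2 in tumor crypts on its tested probe set. Both tumor arrays were below the other 4, and the probe set was above its array's median on 3 arrays, none of them tumor arrays. It fell by 1.33 ± 0.33 on the log2 scale from control (adjusted p = 0.0231 by limma) and by 1.22 ± 0.33 from DSS crypts (adjusted p = 0.0283). A further probe set, annotated to the same GenBank record, read 89.1 and 112 in control, 115 and 109 in DSS, and 36.4 and 20.2 in tumor crypts. It too was above its array's median on 3 arrays, none of them tumor arrays, so both probe sets passed the filter only through control and DSS arrays. In a limma fit of every kept probe set it fell by 1.38 ± 0.31 from control (adjusted p = 0.0182). The highest value of the tested probe set, 169 on control replicate 2, stood beside a median of 101 over all probe sets of that array. Against control its call ended without control replicate 2 (-0.97) and without tumor replicate 2 (-1.20). Against DSS crypts it ended without DSS replicate 1 (-1.32), DSS replicate 2 (-1.12) or tumor replicate 2 (-1.09), and with no filter (adjusted p = 0.053).

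Isl1, a LIM homeobox factor of hormone-producing cells that is also used in neurons, heart and pancreas, was the one factor that rose. Its tested probe set read 133 and 187 in control, 160 and 209 in DSS, and 974 and 896 in tumor crypts. Control and DSS overlapped, and both tumor arrays stood far above them, with means of 160 ± 38.5 in control and 935 ± 54.7 in tumor crypts (SD, n = 2 each), a ratio of 5.83. It rose by 2.44 ± 0.22 on the log2 scale from control (adjusted p = 0.000304 by limma) and by 2.24 ± 0.22 from DSS crypts (adjusted p = 0.000383). Both calls held in all 18 alternatives, with changes from control of 1.97 to 2.66. The other probe set, annotated to the same GenBank record, read 79.8 and 65.5 in control, 61.7 and 86.3 in DSS, and 320 and 238 in tumor crypts. It passed the filter through the tumor arrays alone and had a log2 change of 1.70 ± 0.27 (adjusted p = 0.00434 in the fit of every kept probe set).

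Pax6, a paired homeobox factor needed for proglucagon expression in endocrine cells, was below the array median with all 5 of its probe sets on all 6 arrays. The brightest read 29.6 and 39.1 in control, 25.3 and 50.9 in DSS, and 29.2 and 16.8 in tumor crypts. The other 4 ranged from 0.536 to 26.6. Since no probe set passed the filter, Pax6 was not tested and no direction is given for it.

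The comparison of DSS with control crypts covers day 2 of epithelial injury and shares its control arrays with the comparison of tumor crypts. None of the 7 factors passed, and neither did any of the 7456 genes (0% called by limma in either direction, 189 genes at an unadjusted p under 0.05, none of them a factor). Blocked on replicate number, the fit of all 3 groups also called 0 genes and that of 2 groups called 124, again none of them a factor. The log2 change of Atoh1 was 0.00 with a 95% interval of -0.51 to 0.52, that of Spdef -0.21 (-0.85 to 0.42) and that of Foxa3 -0.29 (-0.72 to 0.15). For Creb3l1 it was 0.27 (-0.60 to 1.14) and for Creb3l4 0.30 (-0.28 to 0.89). For Neurod1 it was -0.11 (-0.86 to 0.64) and for Isl1 0.19 (-0.32 to 0.71). Foxa3 was lower and Creb3l4 higher without overlap between the groups, as 13.7% and 12.8% of all genes were. These intervals leave room for changes of either sign in each factor, and those of Atoh1, Neurod1 and Isl1 do not reach their tumor changes of -1.67, -1.33 and 2.44. The interval of the tumor change of Neurod1, -2.08 to -0.58, overlaps with its DSS interval. Those of Atoh1 and Isl1, -2.19 to -1.16 and 1.92 to 2.95, do not overlap with theirs.

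The comparison of tumor with DSS crypts shares its tumor arrays with the comparison above. It called 5 of the 7 factors, against 26.2% of all genes. Lower were 4 (Atoh1, Creb3l1, Creb3l4 and Neurod1), against 11.3% of all genes, and Isl1 was higher, against 14.8%. Groups did not overlap in any of the 7, against 66% of all genes, with 5 lower (30.7% of all genes) and 2 higher, Foxa3 and Isl1 (35.3%). With DSS replicate 1 or DSS replicate 2 left out, 2 factors were called, Atoh1 and Isl1, and with tumor replicate 2 left out 3.

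Other transcription factors of the secretory lineage moved in both directions in tumor crypts. Of 23 on the list 19 had a probe set and 9 were tested. Of these 3 rose, against 12.8% of all genes, and 3 fell, against 9.74%. Their median log2 change was 0.25 beside 0.05 over all genes, but its sign depended on the setting. It was 0.002 with median centring and -0.21 with no filter on low values, where 19 were tested, 3 rose and 3 fell. With single arrays left out, 2 to 3 rose and 1 to 2 fell. Klf4, a zinc finger factor of goblet cells, fell from 8379 ± 1003 to 4161 ± 717, by 1.01 ± 0.17 on the log2 scale (adjusted p = 0.00469 by limma). Gfi1, a repressor that acts below Atoh1 and favours goblet over endocrine fate, fell from 162 ± 35.4 to 65.4 ± 0.14, by 1.10 ± 0.25 (adjusted p = 0.0177 by limma). It was below the array median on both tumor arrays (medians of 112 and 131) and passed the filter only through the other arrays. Its call ended without control replicate 1 (-0.90) and without tumor replicate 2 (-1.10). Foxa2, a relative of Foxa3, fell by 0.56, a call that ended whichever array was left out (-0.65 to -0.46). Sox4 rose from 1790.4 ± 336 to 8738 ± 54.7, by 2.29 ± 0.17 (adjusted p = 0.000139), and Hes6, an inhibitor of Hes1, by 1.62 ± 0.16. In DSS crypts Sox4 had a log2 change of -0.54 and passed in the 2-group fit blocked on replicate number (adjusted p = 0.0346 by limma) and in no other. Sox9, a factor of crypt base progenitors, rose by 1.02 ± 0.23, a call that ended without control replicate 2 (0.83) and without tumor replicate 2 (0.77). Xbp1, a factor of the secretory cell's unfolded protein response, and Foxa1 had log2 changes of -0.16 and 0.34 and did not pass. Neurog3, Insm1, Nkx2-2 and Pax4, which act in early endocrine cells, were among the genes of the list not tested.

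Of 24 genes listed for the Notch pathway, which sets the choice that Atoh1 carries out, 12 were tested. In tumor crypts 4 rose, against 12.8% of all genes, and 2 fell, against 9.74%, with a median log2 change of 0.27. With single arrays left out, 0 to 5 rose and 1 to 2 fell. Dll1, the ligand made by secretory progenitors and a target of Atoh1, was below the array median on both tumor arrays and passed the filter only through the others. It fell from 249 ± 75.8 to 74.5 ± 3.85, by 1.50 ± 0.27 (adjusted p = 0.00663 by limma). That call ended without control replicate 2 (-1.21). The receptors Notch1, Notch2 and Notch4 rose by 1.19, 1.40 and 1.26 from low levels. Without tumor replicate 2 they were at 0.69, 1.01 and 0.69, and the calls of all 3 ended there, without control replicate 1 (1.27, 1.56 and 1.32) and without control replicate 2 (1.11, 1.23 and 1.19). The call of Notch4 also ended without either DSS array, at 1.26. Hes1 did not pass: its means were 714 ± 299 for control and 830 ± 30.6 for tumor arrays, and its log2 change of 0.27 ± 0.31 became -0.15 without control replicate 2.

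**Figure D3:**
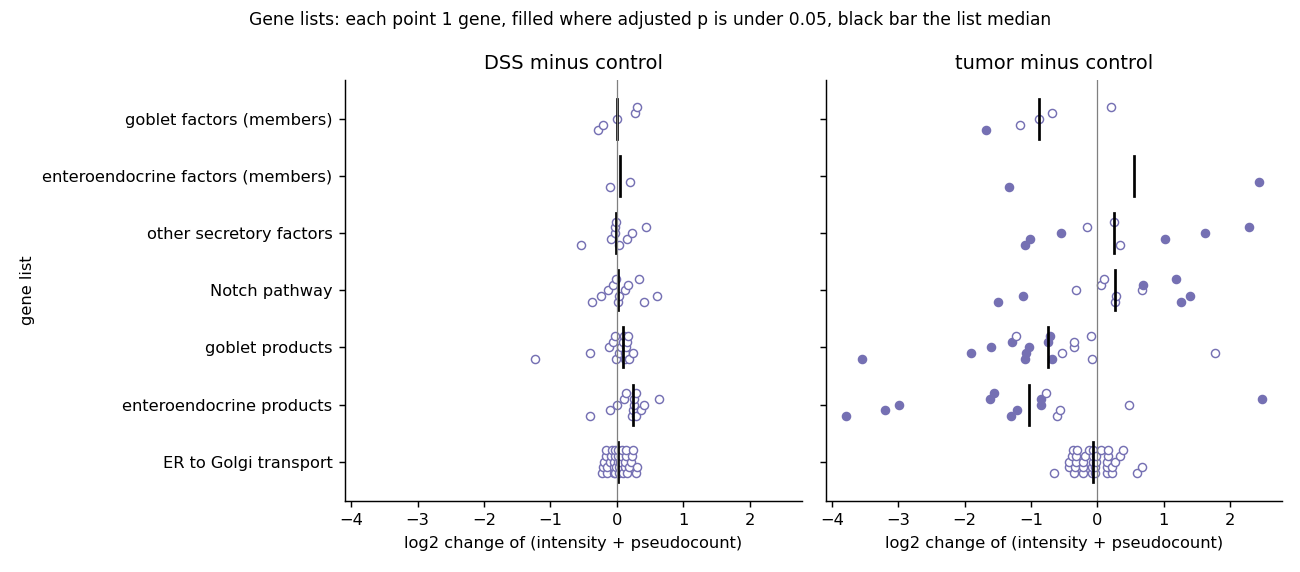
Log2 change of intensity plus 17.7 for each tested gene of 7 lists in DSS and tumor crypts against control; filled points have an adjusted p under 0.05 and bars are list medians. In DSS crypts no point is filled, and in tumor crypts goblet and endocrine products lie mostly left of 0 (medians -0.74 and -1.03) while the other secretory factors and Notch genes fall on both sides.

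Products of the cells that these factors specify were lower in tumor crypts. Of 17 goblet products tested 10 fell, against 9.74% of all genes, and none rose, against 12.8%, with a median log2 change of -0.74 beside 0.05 over all genes (6 to 11 fell with single arrays left out). Clca1, a secreted mucus component, fell by 3.54 ± 0.23 (adjusted p = 9.17e-05 by limma) from 11943 ± 565 to 1042 ± 386. Rep15, a Rab15 effector, fell by 1.91 ± 0.33 and the tryptase Tpsg1 by 1.29 ± 0.24. The mucus proteins Agr2, Tff3 and Zg16 passed with all arrays at -0.74, -0.71 and -0.68. Of the 18 alternatives they passed in 13, 10 and 13. Their calls ended without tumor replicate 2 (-0.43, -0.41 and -0.44), without control replicate 1 (-0.74, -0.83 and -0.81) and without control replicate 2 (-0.74, -0.60 and -0.55). That of Tff3 also ended without either DSS array, at -0.71. Fcgbp, which binds to mucin, fell by 1.60, a call that ended without control replicate 1 (-1.53) and without control replicate 2 (-1.67). In DSS crypts the list had a median of 0.09 and 0 of 17 genes passed by limma, with 1 lower in the 2-group fit blocked on replicate number.

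Of 14 enteroendocrine products tested 9 fell in tumor crypts, against 9.74% of all genes, and 1 rose, against 12.8%, with a median log2 change of -1.03 (5 to 9 fell and 0 to 1 rose with single arrays left out). With no filter on low values 25 were tested, of which 8 fell and 2 rose, and the median was -0.61. The colonic hormone Insl5 fell by 3.78 ± 0.33 (adjusted p = 0.000247 by limma) and proglucagon, Gcg, by 3.20 ± 0.22, from 1155 ± 175 to 109 ± 3.47. That tumor mean of Gcg was below the median of either tumor array (112 and 131). Resp18, a granule protein, fell by 2.99 ± 0.33, the granin Chgb by 1.62 ± 0.16 and the hormone Pyy by 1.21 ± 0.17. Chga fell by 0.85, a call that ended without control replicate 2 (-0.63), tumor replicate 2 (-0.73) or either DSS array (-0.85). Slc18a1, a vesicular monoamine transporter of serotonin-producing cells, was the one product that rose, by 2.47 ± 0.32 (adjusted p = 0.00149), from 43.3 ± 5.23 to 334 ± 133. It passed the filter through the tumor arrays alone and was not tested with either of them left out. In DSS crypts the median was 0.25 and none passed. The smallest unadjusted p belonged to Tac1 (0.64 ± 0.18, adjusted p = 1.0 by limma) and Pyy (0.41 ± 0.17, adjusted p = 1.0). Tac1 passed where replicate number entered a 2-group fit as a block.

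Markers of the cells in the preparation are given beside these changes, each list as the sum of 1 probe set per gene. Pan-epithelial markers summed to 84674 and 79566 in control replicates 1 and 2, 95290.0 and 82188 in DSS, and 82302 and 76243 in tumor crypts, so markers of the labelled epithelium were present on each array. Of the 10 genes 2 were higher in tumor crypts (Cldn4 and Krt18), against 12.8% of all genes. The list's median log2 change was -0.04, -0.29 with median centring and 0.13 with quantile normalization. The share of epithelial cells was not tested. Goblet products summed to 100641 and 89912 in control against 64891 and 48938 in tumor crypts. Enteroendocrine products summed to 13206 and 17926 against 6217 and 5341. Both sums were lower on tumor replicate 2 than on tumor replicate 1. All 10 enteric neuron and glia markers measured were below the array median on every array, with sums of 181 and 230 for control and 148 and 309 for tumor arrays. Fibroblast markers summed to 2553 and 5062 for control and 5331 and 15903 for tumor arrays, but the genes of the list were split. Of 9 tested, 2 were higher (Vim and Fn1), against 12.8% of all genes. A log2 change below 0 was found in 5, and the median was -0.46. Without tumor replicate 2, 5 of the 9 fell and the median was -1.34, and without tumor replicate 1 it was 1.09. Myeloid markers summed to 2065 and 2470 against 5966 and 16834, with 3 of 6 higher, against 12.8% of all genes. Fibroblast and myeloid sums were highest on tumor replicate 2. Isl1 read 974 and 896 on tumor replicates 1 and 2, and the part of these cells in its rise was not tested. Colonocyte markers summed to 45485 and 51053 for control, 35823 and 40914 for DSS and 18575 and 15488 for tumor arrays, so both DSS arrays lay below both control arrays. In tumor crypts 6 of 9 tested were lower, against 9.74% of all genes. In DSS crypts 8 of the 9 had a log2 change below 0, and 4 were lower without overlap, against 13.7% of all genes. By limma 0 were called. In the 2-group fit blocked on replicate number 4 were called lower, where 71 of all 7456 genes were. Tuft cell markers summed to 559 and 444 against 1162 and 1703, and 1 gene carried the rise. That gene, Avil, read 70.1 and 53.2 for control and 905 and 1363 for tumor arrays. The other tested gene had a log2 change of -0.24, and 7 of 9 were below the array median on every array. With no filter the median of the 9 was -0.24, with 1 called higher and 1 lower. Smooth muscle markers summed to 725 and 3766 against 374 and 1209, and all 6 tested had a log2 change below 0, with a median of -1.62. By limma 0 of these 6 were called, against 22.5% of all genes, but 6 were called lower in both fits blocked on replicate number. With median centring 2 were called lower. B and plasma cell markers summed to 4165 and 5279 against 4383 and 6323, with 0 of 2 called by limma, against 22.5% of all genes. Actin signal was higher at the 3' than at the 5' end of the transcript, which reads RNA integrity, by 0.953 and 1.04 (log2) for tumor arrays against 1.20 to 1.63 for the other 4. The part of these cells and of RNA quality in the results was not tested.

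**Figure D4:**
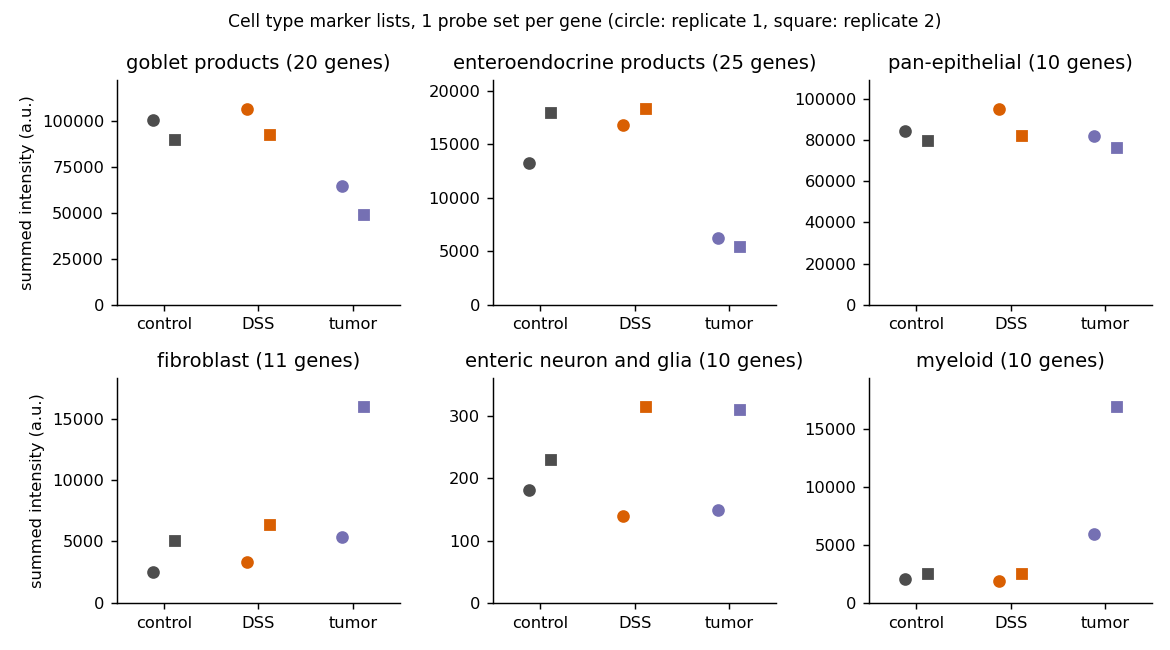
Summed MAS5 signal intensity of 6 marker lists on each array, 1 probe set per gene; circles and squares are replicates 1 and 2. Goblet and enteroendocrine sums are lowest in the tumor arrays, pan-epithelial sums overlap between groups, and fibroblast and myeloid sums are highest on tumor replicate 2 (15903 and 16834).

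Over the 6 arrays, which fall into 3 groups, Atoh1 had Pearson's r of 0.955 with Neurod1, 0.896 with Creb3l4, 0.835 with Spdef and 0.708 with Creb3l1, and of -0.939 with Isl1 and -0.551 with Foxa3. The r of Foxa3 with Creb3l1 was -0.879. These values describe arrays that differ mainly between tumor and the rest. Among the other 7455 genes, those with the highest r to Atoh1 were Aldh1a7, Chpt1 and Plcd1 (0.998 to 0.999), and 399 genes exceeded 0.95. For Isl1 they were Tubb2b, Vill and Clu, with 416 above 0.95, and for Neurod1 Mgst1, Ppy and Hacd1, with 302. Above 0.95 were 15 genes for Spdef (Coa5, Abhd6 and Cldn15 highest), 26 for Foxa3 (Rfc4, Usp8 and Nup43), 51 for Creb3l1 (Slc41a2, Cdhr5 and Nr1d1) and 95 for Creb3l4 (Timp4, Mettl7a1 and Ube3c).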

How the data were processed

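Biotin-labelled cRNA from 6 crypt pools was hybridised to Affymetrix arrays. The authors deposited linear signal intensity values made with MAS5, per the submitters' processing notes, which give no version. Detection calls and raw files were not used here. Of 22690 rows, 64 controls were set aside; of 22626 others, 20380 had 1 gene symbol, 691 several and 1555 none in GEO's platform table. Symbols were updated by gene identifier through RefSeq (99.9% matched). Values were log2 of intensity plus 17.7, the 25th percentile. The filter kept 12146 probe sets that exceeded the median of the array on 2 or more arrays, and the one with the highest mean stood for its gene (7456 genes). One fit held all 6 arrays (limma 3.58.1, trend on intensity, R 4.3.3), with 2-sided tests and Benjamini-Hochberg adjustment over all genes (threshold 0.05). The pipeline was tested on simulated data. Members, lists (16, with 237 genes) and tests were chosen with earlier results of these data known. Genes named beside the members were up to 4 called genes of largest tumor change and 2 of smallest DSS p per pathway list, 16 fixed genes, and the 3 of highest r per tested member; Vim, Fn1, Avil, Cldn4, Krt18, Neurog3, Insm1, Nkx2-2 and Pax4 were chosen after their values were seen. Alternatives covered scaling, pseudocount, filter, probe sets, trend, 2-group fits, a block for replicate number and leaving out single arrays. Each array is a pool, so p-values measure only the spread between pools. Figures used Python 3.11.15 and matplotlib 3.10.9.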

Additional observations from a re-analysis of the deposited data

How the results depend on the processing

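Groups of 2 arrays limit every value, and an exact permutation test of 2 against 2 cannot go below p = 0.333. Of 372 recomputed log2 changes of the factors 363 kept their direction, and the 9 that did not were never called. They were Atoh1 in DSS crypts with median centring (-0.0102), Foxa3 in tumor against control crypts with median centring (-0.0381), Neurod1 in DSS crypts as the mean over probe sets (0.0162), and values with an array left out. With single arrays left out, changes in DSS crypts ran from -0.16 to 0.16 for Atoh1, -0.56 to 0.13 for Spdef, -0.0237 to 0.56 for Creb3l1, -0.47 to 0.25 for Neurod1 and -0.0302 to 0.41 for Isl1. That of Hes1 in tumor crypts ran from -0.15 to 0.70. Factors called in tumor against control crypts numbered 3, and 5 with quantile normalization, 6 with median centring, 5 with the replicate number as a block in a fit of 2 groups and 3 to 5 with single arrays left out. Against DSS crypts they numbered 5, and 3 with no filter and 2 to 5 with single arrays left out. Of all genes, 1680 were called in tumor against control crypts, and 1099 with the 75th percentile filter, where 4160 genes were tested, and 702 to 1382 with single arrays left out. Against DSS crypts 1950 were called, and 1260 with that filter, 2945 with the replicate block in a fit of 2 groups and 904 to 1923 with single arrays left out. In DSS against control crypts 0 genes were called, and 124 with the replicate block in a fit of 2 groups, none of them a factor, and 0 to 2 with single arrays left out. The causes were not tested beyond these constructions. The labels do not say that a replicate number marks a shared litter or day. Deviations of same-numbered arrays correlated at 0.448 between control and DSS, 0.076 between control and tumor and 0.441 between DSS and tumor arrays, across 7456 genes; with the block in the fit of all 3 groups, 1944 genes and 4 factors were called in tumor against control crypts and 2208 genes and 5 factors against DSS crypts.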

Other observations

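The family of membrane-bound leucine zipper factors to which Creb3l1 and Creb3l4 belong had log2 changes of both signs in tumor crypts. Of 6 genes tested on a list of the family, its relative Atf6 and the releasing proteases, 1 rose, against 12.8% of all genes. None fell, against 9.74%, and the median log2 change from control crypts was -0.14. Quantile normalization called 1 lower and 1 higher, and the 75th percentile filter 1 lower and 0 higher. Median centring called 2 lower and 1 higher, with a median of -0.39. Creb3l2 rose by 1.51 ± 0.36 (adjusted p = 0.0195 by limma), from 115 and 86.6 in control to 216 and 462 in tumor replicates 1 and 2, while Creb3l1 and Creb3l4 were at -1.17 and -0.69. The call of Creb3l2 ended without control replicate 2 (1.34) and without tumor replicate 2 (0.99). Control and tumor arrays of Creb3l2 did not overlap.

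Genes of transport from the endoplasmic reticulum to the Golgi, the route of mucins and hormones out of the cell, changed little beside the goblet and endocrine products. Of 40 such genes 37 were tested, and 0 were called by limma in tumor against control crypts, against 22.5% of all genes. Their median log2 change was -0.06, and -0.31 with median centring, which shifts all genes by -0.25. Quantile normalization, median centring and the 75th percentile filter each called 1 lower. The replicate block in 3 groups called 1 higher and 1 lower. The summed intensity of the list was 82579 and 75976 on control replicates 1 and 2, 83688 and 75221 on DSS arrays and 78423 and 73001 on tumor arrays, so the 3 groups overlapped.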
